A study of Mus musculus with 6 samples.

Results

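Genes that stood on the same side of the control level at both doses of a compound were followed in B16F10, a mouse melanoma line that makes pigment. The cultures received plain medium (control) or medium holding 2.5 µM or 40 µM of the compound that the labels name di-sq and, in the title of the series, SQ-diEG, and RNA was taken after 48 h. Each of these 3 groups held 2 arrays, so 4 treated arrays were set against 2 controls. By the titles and treatment fields, which the groups follow, no genotype, strain or second agent distinguishes the groups. The description fields conflict with these in places: that of a 2.5 µM sample reads medium, and those of 3 samples name another treatment. A gene was kept when all 4 treated arrays lay above both controls, or all 4 below both, and when the higher of the control mean and the treated mean exceeded a background level of 9.94 on the deposited log2 scale, the 95th percentile over the array's negative control features. Of 19505 genes measured, 4278 lay above the background level and 1287 met the rule, 710 higher and 577 lower on the treated arrays. The rule uses the treated arrays' position against control, so those differences describe the chosen genes and do not test them. The difference between the 40 µM and the 2.5 µM arrays was not used by the rule.

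B16F10 cells make melanin in melanosomes, organelles related to lysosomes whose proteins pass through the endoplasmic reticulum (ER). The ER folds and oxidises secreted and membrane proteins with chaperones such as BiP and with protein disulfide isomerases. When its load of unfolded protein grows, sensors in its membrane switch on the genes of these helpers, which is called the unfolded protein response. The proteasome degrades proteins marked with ubiquitin, including proteins exported from the ER for disposal.

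The pigment cell identity of the cultures was checked with 10 melanocytic markers, of which 8 lay above background, among them Pmel at 17.74 and 17.73, Tyr at 14.72 and 14.69 and Mlana at 15.16 and 15.23 in the controls. All 5 fibroblast, 5 keratinocyte, 5 leukocyte and 4 endothelial markers measured lay under the background level on all arrays. A pair of treated arrays stood apart from the other 4: replicate 1 at 2.5 µM and replicate 1 at 40 µM, called the low arrays here. Their spiked hybridisation controls had means of 10.43 and 10.30, where the others had 10.82 to 11.15, and their genes spread over an interquartile range of 5.20 and 5.43, where the others had 4.90 to 4.94. Both low arrays are treated, so the levels of many genes below are given array by array. Where only a difference, a gap or a count is given, the part of the low arrays cannot be read from it. What part the low arrays have in the results was not tested beyond the values given. Whether the arrays within a group stem from separate cultures is not in the labels, so their spread, and any p-value made from it, may be technical.

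The share of genes that met the rule was close to the share of features that should carry no specific signal. Among genes above background, 16.6% lay higher and 13.5% lower on all 4 treated arrays. Among the 301 negative control features above the same level, 12.6% lay higher and 22.9% lower. With no limit on level, the shares were 13.0% and 14.8% of the 19505 genes, and 14.8% and 13.5% of the 5222 negative control features. The share of genes that met the rule is thus of the size that these background features gave, and nothing below rests on it. The distance between the nearest treated and the nearest control array, called the gap, was at least 0.5 in 4.32% (higher) and 6.98% (lower) of the negative control features above background, and in 0.514% and 0.281% of the genes. The negative control features also varied more between arrays of a group, with a median standard deviation of 0.10 in control, 0.34 at 2.5 µM and 0.51 at 40 µM, against 0.05, 0.15 and 0.28 for the genes.

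**Figure D1:**
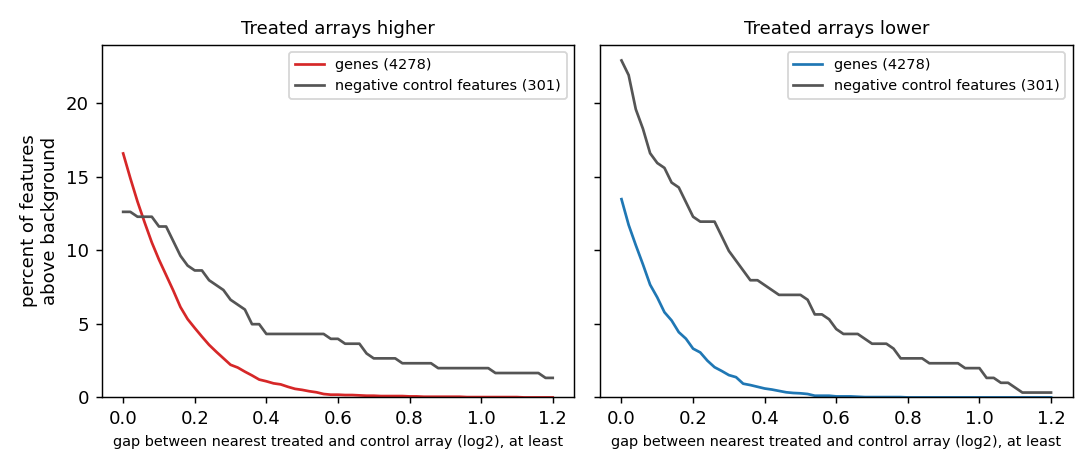
Percent of features above background (y axis) whose 4 treated arrays lie above both controls (left) or below both (right) by at least the gap on the x axis, in log2 units, for 4278 genes and 301 negative control features. At a gap of 0 the gene curves start at 16.6% and 13.5% and the control feature curves at 12.6% and 22.9%, and at a gap of 0.5 the gene curves lie below the control feature curves.

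No gene passed a test of both doses together against control over all 19505 genes (limma, contrast of the mean of the 2 doses with control, Benjamini-Hochberg adjustment; 0.0% called at a threshold of 0.05, smallest adjusted p = 0.319). Before adjustment, 1064 genes (5.46%) had a p under 0.05 and a higher level, and 1412 (7.24%) a lower one. An exact test on the ranks of 4 against 2 arrays, doubled for both sides, cannot give a p under 0.133. The call rested on 40 µM replicate 2: without it 939 genes passed as higher and 559 as lower (417 of the 1287), where the spread at 40 µM had to be borrowed from control and 2.5 µM. With neither low array, 2085 and 2150 passed (834 of the 1287), with the error taken from the 2 controls alone. The differences that follow are thus descriptions of 6 arrays, and each named gene below had an adjusted p of at least 0.319 in this test. Fold changes are given with the standard error of the limma fit on the log2 scale.

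Most of the genes higher on all treated arrays differed little from control. Their median difference was 0.44 on the log2 scale (1.36-fold), 33 of 710 reached 2-fold and 209 reached 1.5-fold. The gap had a median of 0.12, was under 0.1 for 309 genes and at least 0.5 for 22. In 139 of the 710 the control mean lay below background, so their folds are measured from a level not distinguished from it. The leading genes Fryl, Cops9, Prps1, Trappc9, Tpra1 and Fam135a are among these 139. The lower genes differed less. Their median difference was -0.36, 6 of 577 reached 2-fold and 78 reached 1.5-fold, and 12 had a gap of at least 0.5. At the edge of the level limit, Decr1 and Ndufb11 had treated means just inside it, while Taf5l (control mean) and Snx1 (treated mean) fell just outside. The smallest gap belonged to Anapc4, whose nearest treated and control arrays both read 10.88.

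Fryl and Lhfpl2 led the higher genes. Fryl encodes a large relative of the Furry scaffold protein, and its level was 9.18 and 9.40 in the controls, 10.50 and 10.91 at 2.5 µM and 10.85 and 10.52 at 40 µM. All treated arrays were more than 1 log2 unit above both controls and the doses overlapped. The difference of the deposited values was 1.41 with a standard error of 0.20, from a control level below background. Lhfpl2, which encodes a membrane protein of the LHFPL family, had the tightest values: 10.50 and 10.52 in control, 11.52 and 11.48 at 2.5 µM, and 11.51 and 11.47 at 40 µM. Every treated array lay within 0.05 of the others and about 1 unit above control (difference 0.98 with a standard error of 0.15, 1.98-fold). The 40 µM mean of Lhfpl2 was 0.01 below the 2.5 µM mean, with a 95% confidence interval of the dose difference from -0.42 to 0.40, and for Fryl the interval ran from -0.57 to 0.54.

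Cops9, a small subunit of the COP9 signalosome that regulates cullin ubiquitin ligases, had uneven values on the treated arrays and a control level below background. It read 8.15 and 8.11 in control, 11.32 and 8.98 at 2.5 µM, and 13.59 and 9.51 at 40 µM. The 2 low arrays were the high ones, and without them the gene fell under the level limit. Dcun1d1, which promotes attachment of NEDD8 to cullins, stood at 11.13 and 11.16 in control against 11.93, 11.72, 12.31 and 11.71 on the treated arrays. Its smallest treated value was 0.55 above the higher control.

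Several leading genes act in nucleotide supply, secretion and organelle acidification. Prps1, which makes the ribose donor for nucleotide synthesis, lay at 9.68 and 9.72 in control, at 10.67 and 10.52 at 2.5 µM, and at 11.32 and 10.57 at 40 µM (difference 1.07 with a standard error of 0.24). Atp6ap1, an accessory subunit of the vacuolar proton pump, lay at 11.66 and 11.57 in control, at 12.23 and 12.38 at 2.5 µM, and at 12.46 and 12.73 at 40 µM. It was the 1 gene of the leading 15 whose 40 µM arrays both lay above its 2.5 µM arrays. Csf1, the growth factor of macrophages, read 10.50 and 10.51 in control and 11.29, 11.09, 11.23 and 11.12 on the treated arrays, a narrow band 0.58 or more above control. Trappc9, a subunit of a vesicle tethering complex, read 9.37 and 9.38 in control and 10.05, 10.39, 10.03 and 10.48 on the treated arrays, with replicate 2 the higher at each dose.

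The other leading higher genes differed from control by 0.72 to 0.96. They were Fkbp15, Cdkal1 (a tRNA-modifying enzyme), Tpra1, Shq1 (an assembly factor of box H/ACA ribonucleoproteins), Prrc1, Fam50a and Fam135a. Fkbp15 lay at 10.03 and 10.08 in control and between 10.78 and 11.09 on the treated arrays. Cdkal1 lay at 11.16 and 10.99 in control and between 11.84 and 12.09 on the treated arrays. In both, the treated arrays spanned less than 0.4 and did not order by dose.

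Maf1 led the lower genes. Maf1 is a repressor of RNA polymerase III, the enzyme that makes transfer RNA. It read 11.56 and 11.58 in control, 9.95 and 10.44 at 2.5 µM, and 9.74 and 10.77 at 40 µM, a difference of -1.34 with a standard error of 0.30. The low arrays were the lowest at each dose, and the other 2 treated arrays still lay at least 0.79 below control. Fam76b read 11.15 and 11.28 in control, 10.48 and 10.12 at 2.5 µM, and 10.28 and 10.38 at 40 µM, with no order by dose or replicate. Prmt3, a protein arginine methyltransferase that acts on a ribosomal protein, read 11.30 on both controls, 10.22 and 10.14 at 2.5 µM, and 10.44 and 10.83 at 40 µM. Its 2.5 µM arrays lay farther from control than its 40 µM arrays.

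Genes of cell surface, cilia and cell division were among the other leading lower genes. Sdc1, the heparan sulfate proteoglycan syndecan 1, read 10.26 and 10.28 in control against 9.30, 9.45, 8.74 and 9.67 on the treated arrays. Cdon, a cell surface co-receptor for hedgehog ligands, read 13.34 and 13.29 in control, 12.53 and 12.76 at 2.5 µM and 11.43 and 12.45 at 40 µM. Both 40 µM arrays of Cdon lay under both 2.5 µM arrays, and the dose difference of -0.70 had a 95% confidence interval from -1.46 to 0.06. Ttc21b, a transport protein of cilia, lay between 9.41 and 9.69 on the treated arrays against 10.28 and 10.48. Bod1, needed for chromosome biorientation, lay between 9.67 and 10.27 against 10.80 and 10.83. Septin2, a filament protein of the cytokinetic ring, read 14.20 and 14.23 in control and 13.52 to 13.70 on the treated arrays.

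Pex14 (peroxisomal protein import), Senp7 (a SUMO protease), Stk38 (a kinase of the NDR family), Celf1 (an RNA-binding protein), Sh3pxd2a (the invadopodium scaffold TKS5), Mvb12b (a subunit of the ESCRT-I sorting complex) and Mideas completed the leading 15. Their differences ran from -1.06 for Pex14 to -0.57 for Sh3pxd2a. Stk38 lay at 11.60 and 11.59 in control and between 10.75 and 11.06 on the treated arrays. Sh3pxd2a lay at 10.99 and 10.88 in control and between 10.30 and 10.40 on the treated arrays, the narrowest treated range of these genes.

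**Figure D2:**
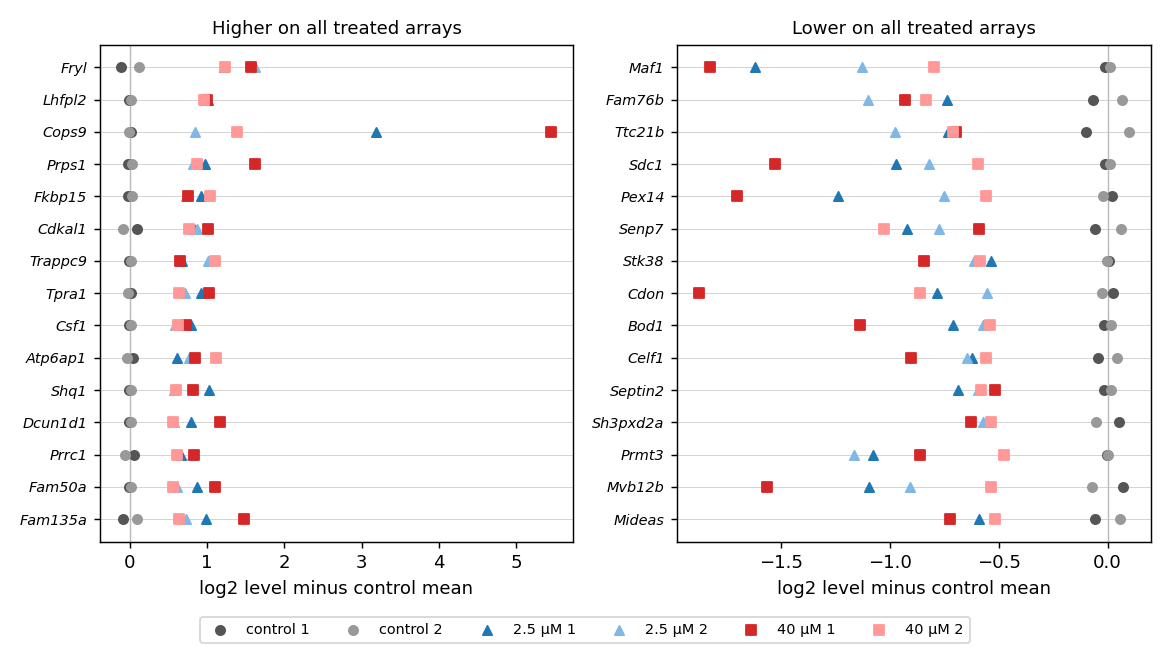
Log2 level minus the control mean (x axis) on each of the 6 arrays for the 15 higher (left) and 15 lower (right) genes with the largest gap, with 1 row per gene; grey circles are controls, blue triangles 2.5 µM and red squares 40 µM. The controls sit near 0, all treated arrays of the left panel lie to their right and all of the right panel to their left, and Cops9 reaches furthest through the 2 low arrays.

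How many genes met the rule depended on how the arrays were scaled. Quantile normalization over genes left 495 higher genes (480 of the 710, 67.6%) and 739 lower genes (552 of the 577, 95.7%), which turns the split toward lower. Centring each array on the median of 17 housekeeping genes left 174 higher (104 of the 710) and 289 lower (194 of the 577), and it moved the median change of all genes by -0.36. The arrays moved by different amounts. After centring, the median of all genes against control was -0.59 and 0.25 on replicates 1 and 2 at 2.5 µM, and -1.26 and 0.12 at 40 µM. Members of the housekeeping list themselves differed from control: Hprt read 10.97 and 11.05 in control, 12.60 and 11.49 at 2.5 µM and 14.06 and 11.42 at 40 µM, while Actb was lower on all treated arrays, at 19.25, 19.21, 19.11 and 19.31 against 19.37 and 19.42. Of the 30 leading genes, all kept their position on 1 side of both controls after quantile normalization and 19 after housekeeping centring. These 19 were all 15 lower genes and Fryl, Cops9, Prps1 and Fam135a among the higher ones. Lhfpl2 and the 10 others overlapped control under that centring.

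In most of these genes the 40 µM mean lay farther from control than the 2.5 µM mean, but rarely without overlap. The median difference of the higher genes was 0.41 at 2.5 µM and 0.46 at 40 µM, and 448 of 710 (63.1%) had the larger difference at 40 µM. The same share over all genes above background was not counted. By array the median difference was 0.64 on replicate 1 and 0.25 on replicate 2 at 40 µM, against 0.46 and 0.32 at 2.5 µM. Replicate 2 at 40 µM thus lay nearer control than both 2.5 µM arrays by this median. The arrays of the 2 doses overlapped in 565 of the higher genes (79.6%), the 40 µM arrays lay above in 76 and below in 69. Over all genes above background, 74.5% overlapped, 9.96% had the 40 µM arrays above and 15.5% below. Of the 577 lower genes, 398 (69.0%) overlapped, and both 40 µM arrays lay under both 2.5 µM arrays in 129 (22.4%). In the test of 40 µM against 2.5 µM, no gene passed over all genes (limma, 0.0% called, smallest adjusted p = 0.132, for Srxn1, which did not meet the rule). Without both low arrays 2965 genes passed, 199 of them among the 1287, with the error taken from the 2 controls alone. Before adjustment, p was under 0.05 for 13 higher genes (1.83%) and 19 lower genes (3.29%), against 1095 of all genes tested (5.61%).

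The distance from control also followed the replicate number. In the higher genes the median difference from the control mean was 0.46 and 0.32 on replicates 1 and 2 at 2.5 µM, and 0.64 and 0.25 at 40 µM. In the lower genes it was -0.32 and -0.27 at 2.5 µM, and -0.49 and -0.26 at 40 µM. Replicate 1, the low array, was the farther one at both doses in 416 higher genes (58.6%), where 40.6% of all genes above background had replicate 1 above replicate 2 at both doses. For the lower genes these shares were 47.1% (272) and 27.7%. Replicate 2 at 40 µM was the treated array nearest to control in 338 higher and 215 lower genes. Without both low arrays, 663 of the 710 and all 577 still met the rule, as fewer arrays have to be on 1 side.

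**Figure D3:**
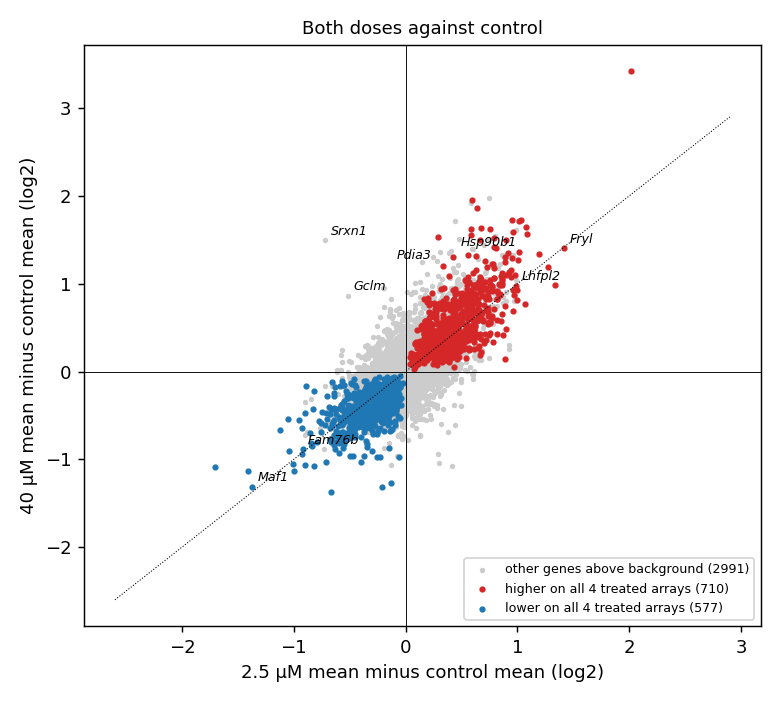
Mean at 2.5 µM minus control mean (x axis) against mean at 40 µM minus control mean (y axis), both log2, for 4278 genes above background; red and blue points are the 710 higher and 577 lower genes and the dotted line marks equal differences. Fryl, Lhfpl2, Maf1 and Fam76b lie near the line, Hsp90b1 and Pdia3 above it, and Srxn1 and Gclm at the upper left among genes lower at 2.5 µM and higher at 40 µM.

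In the list of ER folding and unfolded protein response genes, 7 of the 19 members above background (22 measured) were higher on all treated arrays and 0 lower. That is 36.8%, where all genes above background gave 16.6%. The list's members above background had a median difference of 0.30, against 0.06 for all genes above background. The count was 7 without both low arrays (6 of the same genes), 5 after quantile normalization (5 of the same genes) and 2 after housekeeping centring (1 of the same genes). Over all genes, these settings gave 1073, 495 and 174 higher genes, where the rule on all arrays gave 710. Leaving arrays out cannot move a kept gene off its side of the controls, so the first count does not show independence from the low arrays. No member passed the limma test. The list was chosen with earlier results of these samples known and is no independent evidence of its direction.

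The 7 genes were chaperones and disulfide isomerases. Hsp90b1, the ER form of HSP90, read 16.23 on both controls, 16.70 and 16.61 at 2.5 µM, and 18.06 and 17.00 at 40 µM (difference 0.86 with a standard error of 0.27). Hspa5, the chaperone BiP, read 18.92 and 18.98 in control, 19.19 and 19.15 at 2.5 µM, and 19.51 and 19.42 at 40 µM, close to the array maxima of 19.71 to 19.88, and whether its feature was saturated was not tested. Pdia3, a disulfide isomerase that works with calnexin, read 15.13 and 15.08 in control, 15.48 and 15.40 at 2.5 µM, and 16.45 and 16.16 at 40 µM. In these 3 genes the 3 groups followed each other in order of dose with no overlap. None of the 3 met the rule after housekeeping centring, and Hspa5 did not meet it after quantile normalization.

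The other 4 were Creld2, Pdia6, Dnajb9 and P4hb. Creld2, a secreted ER stress protein, read 8.77 and 8.66 in control, 9.62 and 9.09 at 2.5 µM, and 11.44 and 9.72 at 40 µM, with its control level below background. It did not meet the rule after quantile normalization, after housekeeping centring or without both low arrays. Pdia6, another disulfide isomerase, read 13.40 and 13.44 in control, 13.88 and 13.54 at 2.5 µM, and 15.57 and 14.33 at 40 µM. Dnajb9, a cochaperone of BiP, had a gap of 0.06, as did P4hb, the founding disulfide isomerase. Replicate 1 was the higher array at both doses in all 7.

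On the dose difference, which the rule did not use, 6 of these 7 had both 40 µM arrays above both 2.5 µM arrays (all but P4hb), compared with 76 of the 710 higher genes (10.7%). The dose difference was 0.88 for Hsp90b1 (95% confidence interval from 0.13 to 1.62), 0.87 for Pdia3 (0.47 to 1.26) and 0.30 for Hspa5 (-0.01 to 0.61). None passed over all genes (limma, adjusted p = 0.854 for Pdia6). In this list, then, being on 1 side of control at both doses did not mean an equal level at both. Of the members that did not meet the rule, Dnajb11 missed it by 1 array, and Hyou1, another ER chaperone, read 15.93 and 15.95 in control, 15.52 and 15.69 at 2.5 µM, and 16.04 and 16.41 at 40 µM, on opposite sides of control. Edem1, Herpud1, Ern1 and Sel1l, which act in disposal and sensing, had treated arrays on both sides of a control.

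**Figure D4:**
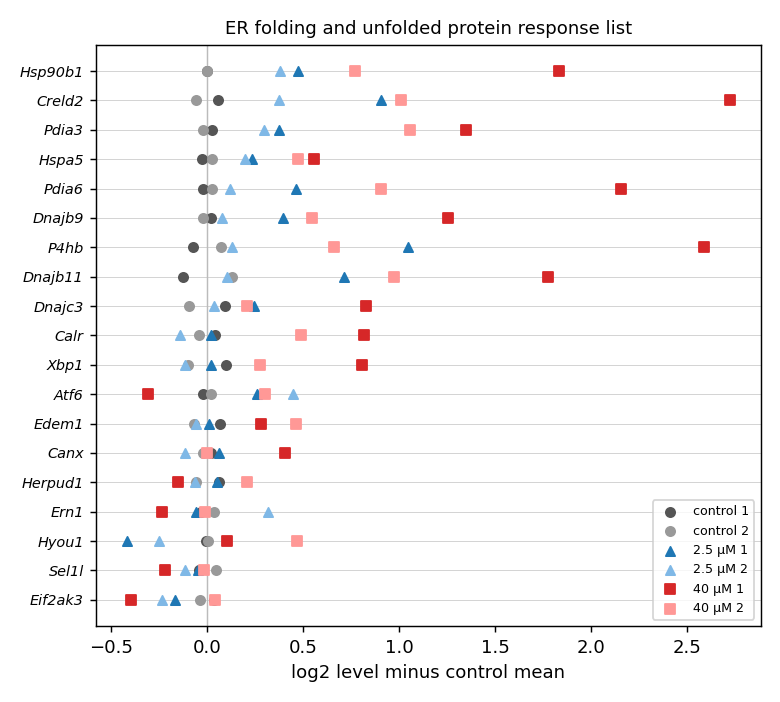
Log2 level minus the control mean (x axis) on each array for the 19 genes of the ER folding list above background, with the 7 that met the rule on top; symbols as in the plot of the leading genes. The 7 upper rows have all treated arrays to the right of both controls, and in 6 of them, all but P4hb, both red squares lie to the right of both blue triangles.

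Promoter windows of these genes were read from RefSeq (GRCm38.p6; 250 bases before to 50 bases after a gene's start). Each window was searched on both strands for the ER stress response element, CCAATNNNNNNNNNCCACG, which joins a CCAAT box to CCACG through 9 free bases and is bound by the stress factor ATF6 together with NF-Y. It was present in the windows of Creld2, Hsp90b1, Hspa5 and Pdia6, and not found in those of Dnajb9, P4hb and Pdia3. These 4 windows are shown because they hold the element, given in capitals, 5′ to 3′ on the gene's strand.
Hspa5: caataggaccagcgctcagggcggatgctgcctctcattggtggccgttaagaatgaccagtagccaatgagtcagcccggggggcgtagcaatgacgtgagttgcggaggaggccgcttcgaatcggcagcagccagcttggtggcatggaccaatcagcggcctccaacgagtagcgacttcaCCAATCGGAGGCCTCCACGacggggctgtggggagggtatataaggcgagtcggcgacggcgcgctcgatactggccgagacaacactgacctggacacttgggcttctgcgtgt
Hsp90b1: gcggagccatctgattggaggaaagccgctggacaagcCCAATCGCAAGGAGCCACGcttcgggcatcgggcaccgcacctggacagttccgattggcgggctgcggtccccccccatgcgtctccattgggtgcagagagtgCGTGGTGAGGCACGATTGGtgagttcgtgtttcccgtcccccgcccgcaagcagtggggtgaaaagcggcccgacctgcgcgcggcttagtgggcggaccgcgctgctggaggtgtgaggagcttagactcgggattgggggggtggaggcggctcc
Creld2: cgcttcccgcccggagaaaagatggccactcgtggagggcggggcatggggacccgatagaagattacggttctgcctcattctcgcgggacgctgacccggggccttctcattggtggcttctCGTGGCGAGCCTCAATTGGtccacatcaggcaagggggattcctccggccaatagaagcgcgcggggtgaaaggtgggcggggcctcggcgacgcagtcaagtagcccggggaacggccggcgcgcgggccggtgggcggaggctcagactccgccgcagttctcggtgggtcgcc
Pdia6: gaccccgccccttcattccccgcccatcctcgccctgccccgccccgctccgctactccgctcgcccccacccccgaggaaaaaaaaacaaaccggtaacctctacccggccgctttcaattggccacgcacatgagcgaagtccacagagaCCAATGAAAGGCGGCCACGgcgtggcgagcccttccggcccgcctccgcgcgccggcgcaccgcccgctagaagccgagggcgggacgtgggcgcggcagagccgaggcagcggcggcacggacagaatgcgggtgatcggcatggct

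The Hspa5 window is chr2:34771840-34772139 (plus strand), and its element begins at position -65, counted from the start site. Hsp90b1 (chr10:86705395-86705694, minus strand) holds 2 elements, beginning at -212 and -107, the latter on the opposite strand. Creld2 (chr15:88819396-88819695, plus strand) holds 1 on the opposite strand from -126, and Pdia6 (chr12:17266339-17266638, plus strand) holds 1 from -98. The element was in 0.137% of all 27025 genes with a window and in 9 of 3560 above-background genes with one (0.253%). Of those 9, 5 were higher genes (the 4 shown and Xlr3a, a gene with near-identical copies), and 0 of 494 lower genes with a window held it. Calr, Canx and Dnajc3, also on the ER list, and Pan2, which is not, held it without meeting the rule. Of the ER list genes with a window, 4 of the 7 higher ones (57.1%) and 4 of the 13 others (30.8%) held it. Since the ER list had 0 lower genes, the split of the genes with the element is not independent of that list. A match describes letters in this window and is not evidence of binding.

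Other short motifs were about as frequent in the chosen genes as in all genes above background. Windows were found for 594 higher and 494 lower genes. The antioxidant response element core TGACNNNGC was in 14.98% and 17.2% of these, against 16.8% of above-background genes. CACGTG, bound by MYC, MITF and their relatives, was in 10.9% and 11.9% against 12.9%. The cAMP response element TGACGTCA was in 4.88% and 2.63% against 3.85%, and the ETS motif CCGGAAG in 25.1% and 22.3% against 23.4%. The CCAAT box CCAAT, which the ER element contains, was in 43.3% and 42.5% against 44.3%.

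The proteasome list had 7 of 24 members above background higher (29.2% against 16.6% of all genes above background) and 1 lower, Psme3. The 7 were the regulatory particle genes Psmd2, Psmd14, Psmc2 and Psmc4 and the core particle genes Psmb6, Psma3 and Psma2. Psmd2 read 12.93 on both controls, 13.58 and 13.21 at 2.5 µM, and 13.58 and 13.36 at 40 µM. Psma3 read 9.30 and 9.41 in control, 10.75 and 9.54 at 2.5 µM, and 12.06 and 9.69 at 40 µM, with its control level below background. The doses overlapped in all 7, and the list followed the low arrays: its median against control was 0.69 and 0.03 on replicates 1 and 2 at 2.5 µM, and 1.38 and -0.00 at 40 µM. Without both low arrays 6 members were higher and 4 lower. Over all genes that setting gave 1073 higher and 1044 lower, where the rule on all arrays gave 710 and 577.

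The same order of arrays held for genes of mitochondrial energy metabolism. In the oxidative phosphorylation list, 4 of 23 members above background were higher (17.4%, near the 16.6% of all genes) and 0 lower: Atp5a1 and Atp5o of ATP synthase, Sdhc of complex II and Ndufa9 of complex I. The list's median was 0.78 and -0.02 on replicates 1 and 2 at 2.5 µM, and 1.36 and 0.01 at 40 µM. Atp5a1 read 13.94 and 13.88 in control, 14.96 and 14.34 at 2.5 µM, and 15.41 and 14.22 at 40 µM. In the citric acid cycle list, 4 of 15 were higher (26.7%; Fh1, Idh1, Dlst and Dld) and 0 lower, with medians of 0.60 and 0.16 on replicates 1 and 2 at 2.5 µM, and 1.02 and 0.08 at 40 µM. The control means of Fh1, Idh1 and Dlst lay below background. Those genes passed the level limit only through the treated arrays, so the count higher is partly set by the rule. Fh1, fumarase, read 9.92 and 9.86 in control, 11.05 and 10.09 at 2.5 µM, and 11.17 and 10.46 at 40 µM. In all 8 of these genes replicate 1 was the higher array at both doses. Without both low arrays the oxidative phosphorylation list had 4 higher and 6 lower members, and the citric acid cycle list 4 higher (3 of the same genes) and 0 lower. All genes gave 1073 higher and 1044 lower in that setting, against 710 and 577 on all arrays. After housekeeping centring 9 members of the oxidative phosphorylation list were higher (2 of the same genes) and 1 lower, where all genes gave 174 and 289.

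Ribosomal protein genes had 2 of 26 members higher, Rpl6 and Rpl11, although the list's medians on the low arrays were 0.62 and 0.78. On the replicate 2 arrays the medians were -0.24 and -0.16. Rpl6 read 14.11 on both controls, 15.86 and 14.54 at 2.5 µM, and 17.05 and 14.31 at 40 µM. Of the 26, 2 were higher and 13 lower without both low arrays. In that setting all genes gave 1073 higher and 1044 lower, against 710 and 577 on all arrays. Translation factors had 1 of 18 higher (Eef1g), and aminoacyl-tRNA synthetases 2 of 16 higher (Nars and Rars) and 1 lower (Gars, with a difference of -0.05). The spliceosome and hnRNP list had 5 of 24 higher (Hnrnpc, Srsf2, Srsf5, Tra2b and Hnrnpk) and 5 lower (Srsf10, U2af1, Snrnp70, U2af2 and Hnrnpa2b1). That is 20.8% each way, where all genes above background gave 16.6% higher and 13.5% lower. After quantile normalization 3 were higher and 5 lower (495 and 739 over all genes), and after housekeeping centring 1 and 2 (174 and 289 over all genes). Srsf2, a splicing activator, read 11.21 and 11.24 in control, 12.15 and 11.56 at 2.5 µM, and 12.59 and 11.60 at 40 µM.

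In the hypoxia list, regulators and targets of the factor HIF-1, 6 of 13 members above background were higher (46.2%): Arnt, Slc2a1, Ndrg1, Bnip3l, Kdm3a and Bnip3. All genes above background gave 16.6% higher and 13.5% lower. Vegfa was the 1 lower member, and replicate 1 was the farther array at both doses in 3 of the 6. Slc2a1, the glucose transporter GLUT1, read 13.83 and 13.79 in control, 14.24 and 14.11 at 2.5 µM, and 14.52 and 14.56 at 40 µM, an order by dose. Ndrg1 read 11.79 and 11.72 in control, 12.32 and 12.16 at 2.5 µM, and 12.20 and 12.05 at 40 µM. Vegfa, the endothelial growth factor, read 13.36 and 13.48 in control, 12.91 and 13.07 at 2.5 µM, and 12.58 and 13.09 at 40 µM, so this HIF-1 target lay on the other side. Without both low arrays the count was 6 (5 of the same genes), 4 after quantile normalization and 2 after housekeeping centring. Over all genes these settings gave 1073, 495 and 174 higher genes against 710. Leaving arrays out cannot move a kept gene off its side of the controls. In the glycolysis list 4 of 14 were higher (28.6%; Slc2a1, Pfkp, Tpi1 and Ldha) and Pfkfb3 was lower (7.14%).

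**Figure D5:**
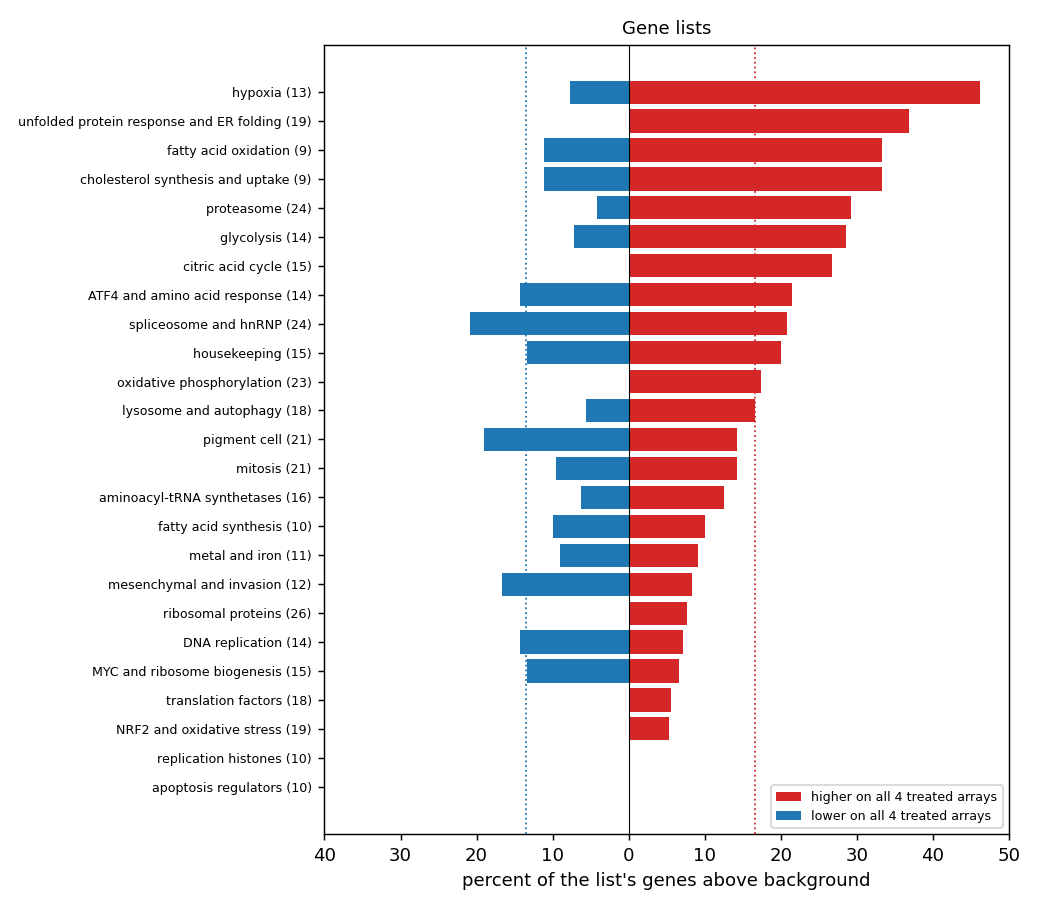
Percent of a list's genes above background (number in parentheses) that lay higher (red, to the right) or lower (blue, to the left) on all 4 treated arrays, for lists with at least 9 such genes; dotted lines mark 16.6% and 13.5%, the shares over all genes above background. Hypoxia (46.2%) and ER folding (36.8%) have the longest red bars, and apoptosis regulators and replication histones have none.

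Sterol genes above background were few. In the cholesterol synthesis and uptake list 3 of 9 were higher, all enzymes of late synthesis (Sc5d, Cyp51 and Nsdhl), and 1 was lower, Srebf2, which encodes their regulator SREBP2. These shares are 33.3% and 11.1%, where all genes above background gave 16.6% and 13.5%. Cyp51 read 12.04 and 12.09 in control, 12.21 and 12.31 at 2.5 µM, and 12.57 and 12.44 at 40 µM. Srebf2 read 14.83 on both controls, 14.49 and 14.36 at 2.5 µM, and 14.35 and 14.81 at 40 µM, where the last value lay 0.02 below control. Sqle, squalene epoxidase, lay higher on all 4 arrays by at least 0.67 but stayed outside the rule, as its treated mean was below background (9.80, 9.53, 10.15 and 9.84 against 8.72 and 8.86). None of the 3 synthesis enzymes met the rule after housekeeping centring.

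Of the liver X receptor (LXR) targets and sterol efflux genes, 3 of 7 above background were higher and 1 lower (42.9% and 14.3%). All genes above background gave 16.6% and 13.5%. Lpcat3, a phospholipid acyltransferase, read 14.32 and 14.22 in control, 15.04 and 14.78 at 2.5 µM, and 15.35 and 15.16 at 40 µM, an order by dose with a gap of 0.46 (difference 0.81 with a standard error of 0.15). Npc2, a lysosomal cholesterol carrier, was higher by 0.39 and its partner Npc1 was lower, with a difference of -0.42. Pltp, a phospholipid transfer protein, was the third higher gene. It did not meet the rule without both low arrays, and none of the 3 higher genes met it after housekeeping centring. Abca1, a cholesterol exporter, lay below background in all groups and did not meet the rule.

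In fatty acid metabolism, Decr1, Etfdh and Plin2 of the oxidation list were higher and Ppargc1a, a coactivator of mitochondrial genes, was lower (3 and 1 of 9, 33.3% higher against 16.6% of all genes above background). The control means of Decr1 and Plin2 lay below background, so both passed the level limit only through the treated arrays. None of the 3 higher genes met the rule after quantile normalization or after housekeeping centring, which turned the difference of Plin2 to -0.07. Ppargc1a read 12.69 and 12.54 in control, 12.15 and 12.39 at 2.5 µM, and 11.56 and 12.01 at 40 µM. Of the synthesis list, Fads2 was higher by 0.20 and Fads1 lower, with a difference of -0.34, of 10 above background. The gap of Fads2 was 0.04, it did not meet the rule after quantile normalization, and its difference was -0.16 after housekeeping centring.

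Pigment cell genes were split. Of 21 above background, 3 were higher (Rab38, Pmel and Slc24a5; 14.3%) and 4 lower (Ap3b1, Mitf, Myo5a and Mlph; 19.0%), near the 16.6% and 13.5% of all genes. Mitf, the lineage transcription factor, read 16.03 and 15.95 in control, 15.83 and 15.88 at 2.5 µM, and 15.10 and 15.51 at 40 µM. At 2.5 µM it lay 0.07 under the lower control, and the dose difference was -0.54 with a 95% confidence interval from -0.98 to -0.11 (limma, adjusted p = 0.854). Neither Mitf nor Pmel met the rule after quantile normalization or after housekeeping centring. Mlph and Myo5a encode the adaptor and the motor that carry melanosomes on actin, and Rab38 a GTPase that sorts cargo to melanosomes. Rab38 read 15.05 and 15.04 in control, 15.47 and 15.40 at 2.5 µM, and 15.79 and 15.45 at 40 µM. Tyr, the key enzyme of melanin synthesis, and Mlana had treated arrays on both sides of control.

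Stress lists contributed few genes, where all genes above background gave 16.6% higher and 13.5% lower. Of 19 members of the NRF2 and oxidative stress list above background, Txnrd1, thioredoxin reductase, alone met the rule (5.26%), at 16.47 and 16.53 in control, 16.79 and 16.62 at 2.5 µM, and 17.35 and 17.26 at 40 µM. Srxn1 and Gclm lay below both controls at 2.5 µM and above both at 40 µM. Srxn1, sulfiredoxin, read 10.21 and 10.43 in control, 9.63 and 9.57 at 2.5 µM, and 11.85 and 11.78 at 40 µM. They were 2 of 47 genes with that pattern above background (1.1%), and 83 genes had the reverse (1.94%). Hmox1, heme oxygenase 1, had 1 of 4 treated arrays above the controls.

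In the ATF4 and amino acid list 3 of 14 were higher (Phgdh, Atf3 and Atf4) and 2 lower (Trib3 and Shmt2). These shares are 21.4% and 14.3%, against 16.6% and 13.5% of all genes above background. Atf3 read 11.10 and 11.22 in control, 11.81 and 11.86 at 2.5 µM, and 11.37 and 11.69 at 40 µM, so the lower dose lay farther from control. Atf4 itself had a gap of 0.01. Ddit3, the factor CHOP, did not meet the rule. Ccng1 was the 1 higher p53 target of 7 and Cdkn1a (p21) had treated arrays on both sides of control, and of 10 apoptosis regulators above background 0 met the rule in either direction. Hsph1, a large heat shock chaperone, was the 1 higher member of 7 in the heat shock list, at 9.83 and 9.76 in control and 10.28, 10.46, 10.98 and 10.32 on the treated arrays, and Stip1 was lower by 0.11 on average. The control level of Hsph1 lay below background.

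Cell cycle genes lay on both sides. Of 21 mitotic genes above background, Kif20a, Ndc80 (control mean below background) and Aurkb were higher and Mki67 and Plk1 lower. These shares are 14.3% and 9.52%, against 16.6% and 13.5% of all genes above background. Mki67, the proliferation marker Ki-67, read 15.99 and 15.96 in control, 15.87 and 15.88 at 2.5 µM, and 15.56 and 15.59 at 40 µM. Of 14 DNA replication genes, Tyms was higher and E2f1 and Mcm6 lower. Cdk6, a kinase of the G1 phase, was the 1 member of 8 in its list and was lower, at 10.96 and 10.86 in control and 10.29, 10.36, 10.53 and 10.20 on the treated arrays, with a gap of 0.33. In the MYC and ribosome biogenesis list Wdr12 was higher and Max and Ddx21 lower, of 15. Myc and the 10 replication histones above background did not meet the rule.

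In the mesenchymal and invasion list Itgav and Fn1 were lower and Timp3 higher, of 12 above background. These shares are 16.7% and 8.33%, against 13.5% lower and 16.6% higher over all genes above background. Fn1, fibronectin, read 10.80 and 10.67 in control, 10.06 and 10.42 at 2.5 µM, and 9.56 and 9.98 at 40 µM. Itgav, a subunit of its receptors, had a difference of -0.47 with a standard error of 0.17. Amotl2 of the YAP-TEAD targets, Klf6 of the immediate early genes and Tfap2a of the neural crest genes were the lower members of their lists. Slc11a2, the iron importer DMT1, was lower, at 11.03 and 10.92 in control and 10.05, 10.24, 9.66 and 10.60 on the treated arrays. Aco1, the iron regulatory protein IRP1, was higher by 0.45 from a control mean below background. The metallothioneins Mt1 and Mt2 did not meet the rule, since replicate 2 at 2.5 µM read 14.97 for Mt1, between its controls of 14.99 and 14.96, and 13.18 for Mt2, below its controls of 13.31.

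Of the remaining lists, lysosome and autophagy genes had 3 higher (Gabarapl1, Gabarap and Lamp2) and 1 lower (Gaa) of 18. These shares are 16.7% and 5.56%, against 16.6% and 13.5% of all genes above background. Class I antigen presentation had Tapbp lower and Pdia3, also on the ER list, higher of 4. Tgfbr1 was the 1 higher member of 6 in the WNT and TGF-beta list, and the 1 interferon response gene above background did not meet the rule. Of 15 housekeeping genes above background, Ppib, Hprt and Tbp were higher and Actb and Tubb5 lower, shares close to those of all genes. Ppib, itself an ER peptidyl-prolyl isomerase, had a gap of 0.53, at 10.79 and 10.89 in control and 12.28, 11.42, 12.72 and 11.49 on the treated arrays.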

How the data were processed

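The deposited table holds log2 values of 28846 features on 6 single-colour Affymetrix mouse arrays, made by the authors with RMA, per the submitters' processing notes; these also list Affymetrix Expression Console and Transcriptome Analysis Console. RMA subtracts background, equalises the arrays' distributions and combines probes, which takes out differences in total signal. The values reached 19.88, above the 16 that a scanner image allows. The step behind this is not given in the sources used here, so folds are on the deposited scale. The genome build of the processing is not given in the sources used here. Labels conflict in places: a description field calls a 2.5 µM sample medium and those of 3 samples name another treatment, so groups follow the titles and treatment fields. The array type and RNA input also differ between label fields.

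The platform annotation gave 19572 of 22206 transcript clusters 1 symbol and 2634 none. For 55 genes with several clusters the one with the highest mean was used, which left 19505 genes, with no column of another series (0). Depth is not defined for arrays, and their number limits the precision. Tests used limma 3.58.1 in R 4.3.3 (3 group means, variance trend, all arrays and genes, 3 residual degrees of freedom, prior 4.11, two-sided, Benjamini-Hochberg), checked on simulated data. The simulation used independent noise of equal spread on all arrays. It therefore does not cover the deviations that the low arrays share or the unequal spread of the groups. Counts and figures used Python 3.11.15. Of 806 genes on 41 lists 728 were measured, 14 through an older symbol. The members, lists and tests were chosen with earlier results of these data known. Genes named are the 15 with the largest gap per direction, up to 4 per list by gap, a fixed set of stress, sterol, pigment and cell cycle genes, and genes at the edges of the rule; further list members are named without a rule. Alternatives changed the level limit, scaling, feature choice, minimum gap, model and arrays kept.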

Additional observations from a re-analysis of the deposited data

Results flagged for a closer look

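In a group of 4 treated arrays, single values stood away from the rest in 6 of the 137 named genes, by Dixon's criterion at 95%, which chance alone meets in about 1 group in 20. For Ttc21b, replicate 2 at 2.5 µM read 9.4051, the lowest treated array. For Srsf10, a splicing factor, the same array read 11.7593, also the lowest. Replicate 1 at 40 µM, a low array, was the highest for Rab38 (15.7946), Plin2 (10.4519), which coats lipid droplets, and Arnt (10.9281), the partner of HIF-1 alpha. Replicate 2 at 40 µM was the highest for Fads2, at 14.7122. All 6 genes met the rule, so their treated arrays lie on the same side of both controls by selection.

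The doses went opposite ways in 2 antioxidant genes. For Srxn1 the 40 µM mean exceeded the 2.5 µM mean by 2.2129, with both 2.5 µM arrays below and both 40 µM arrays above the controls (limma test of the dose difference, adjusted p = 0.132). For Gclm, a subunit of the enzyme that starts glutathione synthesis, the excess was 1.3842 with the same pattern (limma, adjusted p = 0.854). Srxn1 passed with the low arrays as a block (adjusted p = 0.0275) and both passed without the low arrays (adjusted p = 0.000349 and 0.000681, limma, error from the 2 controls alone). Over the other alternatives the adjusted p of Srxn1 was between 0.0665 and 1. Both genes are outside those kept by the rule.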

How the results depend on the processing

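The number of genes on 1 side of both controls followed the limit on level: 107 higher and 147 lower at the 99th percentile of the negative features, 1731 and 1205 at the 50th, and 2540 and 2877 with no limit. Housekeeping centring gave 174 and 289, a gap of at least 0.5 gave 22 and 12, and leaving out both low arrays 1073 and 1044. Leaving out 1 array gave 787 to 1225 higher and 659 to 843 lower genes. Quantile normalization (495 and 739) and the mean of a gene's features (711 and 575) stayed within 1.5 times of 710 and 577. Under limma 0 genes passed in either direction, against 1064 higher and 1412 lower at an unadjusted p under 0.05. Leaving out 1 array gave 0 to 939 higher and 0 to 559 lower calls, the largest without 40 µM replicate 2, and leaving out both low arrays gave 2085 and 2150. The deviations of same-numbered arrays showed no pairing of control with either dose (correlation -0.00 and -0.01). Between the doses they were shared (0.39), with a low array as replicate 1 of each. With the replicate block 0 genes passed (limma, smallest adjusted p = 0.21). In the dose difference 0 of the 1287 genes passed under 15 fits, the low arrays as a block included, but 199 passed without both low arrays, a fit of the dose difference added, like the other settings of the gene list counts, after seeing the data. In those list counts, housekeeping centring moved the higher genes from 7 to 2 in the ER list, from 6 to 2 in the hypoxia list and from 4 to 9 in the oxidative phosphorylation list. Spliceosome genes went from 5 to 3 with quantile normalization and to 1 with housekeeping centring.

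Of 137 named genes, 21 changed sign under at least 1 alternative, and the cause was not tested. Housekeeping centring shifts the mean treated difference of all genes by about -0.36, through shifts that differ between the arrays. Under it the change became -0.0441 for Cyp51, -0.1605 for Fads2, -0.0707 for Plin2, -0.1812 for Lamp2, -0.0609 for Phgdh, -0.0761 for Kif20a, -0.0205 for Nars, -0.1369 for Tpi1, -0.0673 for Timp3, -0.1507 for Tgfbr1, -0.2270 for Pmel, -0.1856 for Gclm, -0.2260 for Atf4, -0.1888 for Mlana, -0.3202 for Cdkn1a, -0.1167 for Snx1 and -0.0560 for Anapc4. After quantile normalization Cdkn1a had -0.0087. Without both low arrays Hmox1 had 0.1427, Nqo1 -0.0740, Gclm -0.0194, Tyr 0.0580, Mlana -0.1935 and Cdkn1a -0.1622. Leaving out 1 array gave -0.4299 to 0.0983 for Hmox1, -0.1175 to 0.0575 for Ddit3, -0.1600 to 0.0088 for Tyr, -0.0418 to 0.3808 for Mlana and -0.0915 to 0.1677 for Cdkn1a. Signal over background limits 139 of the higher genes, whose control mean lies below it.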

Other observations

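Genes on opposite sides of control at the 2 doses were counted the same way among the 4278 above background. In 83 of them (1.94%) both 2.5 µM arrays lay above and both 40 µM arrays below the controls. They were led by Deptor, an inhibitor of the kinase mTOR, at 12.38 and 12.30 in control, 12.80 and 12.76 at 2.5 µM, and 11.93 and 11.54 at 40 µM. Prickle1, of planar cell polarity, read 12.71 and 12.68, then 13.05 and 12.93, then 11.79 and 11.51 in the same order. Trpm1, a channel gene of pigment cells, Sash1 and Hpgds shared this order. So did 3 of the 14 replication genes above background (Mcm4, Mcm5 and Rrm1), and the other 11 did not. Trpm1 was 1 of 2 with this order among 21 pigment cell genes above background. The reverse order was seen in 47 genes (1.10% of those above background), among them the lipid desaturase Scd1. Of the 19 members of the NRF2 and oxidative stress list above background, 5 had it (26.3%): Srxn1, Gclm, Me1, Sqstm1 and Slc7a11, the cystine importer. The other 14 did not, among them Txnrd1, higher at both doses, and Hmox1, above the controls on 1 of 4 treated arrays. The list was chosen with earlier results of these samples known. None of these genes passed the dose test over all genes (limma, adjusted p = 0.132 for Srxn1 and 0.854 for the others), and the genes other than Srxn1 and Gclm were chosen after their values were seen.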
